A study of Danio rerio with 8 samples.

Results

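The translation initiation and elongation factors of the zebrafish embryo were taken as the genes whose symbol in the platform annotation begins with eif or eef and a digit. A gene was kept when a probe set of its own reached a signal of 41 on at least 2 of 8 arrays, and it was represented by its brightest probe set, except that both probe sets of eif1axa were kept. Of 63 genes with such a symbol on the array, 56 passed, with 57 probe sets among the 7375 tested. The 7 others were eef1a1b, eef1a1l3, eef1akmt2, eef2k, eef2l2, eif2b1 and eif3hb, and 2 further probe sets with several gene symbols were left out. The closest to the minimum inside it was eif2b3, with a second-highest signal of 60.5, and the closest outside was eif3hb, with 33.5. No member probe set had an empty cell.

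The arrays compared MZspg embryos, which carry the m793 allele of spg and have neither maternal nor zygotic function of that locus, with wild type embryos (WT, bred from AB x TÜB). The spg locus encodes Pou5f3, a POU-domain transcription factor of the early embryo. The groups were MZspg and WT at 60% epiboly (7 hours after fertilisation) and MZspg and WT at 30% epiboly (4.7 hours), with 2 arrays each. Epiboly is the spreading of the cells over the yolk, and the percentage says how far it has gone. Each array was made from the total RNA of 120 whole embryos, named as biological duplicates, and of the MZspg embryos' background the labels name only the allele. In such bulk samples fewer cells of a type and less RNA per cell cannot be told apart.

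Translation of an mRNA starts when the factors of the eIF4 group bind its cap and unwind its leader, while eIF2 brings the initiator tRNA, eIF3 holds the small ribosomal subunit to the mRNA, and eIF1A and eIF5 take part in choosing the start codon. Elongation factor eEF1A then brings each tRNA, its exchange factor eEF1B recharges it, and eEF2 moves the ribosome on. The early fish embryo first lives on factors and mRNAs stored in the egg, and its own genome takes over before gastrulation.

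The pou5f3 transcript, of the mutated locus itself, had signals of 1268 and 891 in MZspg and 2957 and 2214 in WT at 60% epiboly. At 30% epiboly it had 1292 and 1327 in MZspg and 2849.9 and 3166 in WT, so the genotypes did not overlap at either stage. Replicates correlated at 0.9212 to 0.9516 across all tested probe sets and at 0.9444 to 0.9796 across the members. Replicate 2 of both genotypes at 60% epiboly had spike-in control signals of 736.4 in MZspg and 592.1 in WT, against 79.86 to 189.9 on the other arrays, and both carried the fewest filled cells. These are called the arrays of high spike-in signal. At 60% epiboly, differences between arrays of the same replicate number lie within one set, of high spike-in signal or of the others. They are given below for the members called between the genotypes there and for eef1db. Other members also differed between the sets, such as eif2s2 (0.45 for replicate 1 and 0.93 for replicate 2) and eif4enif1 (1.03 and 0.47). MZspg replicate 2 of 60% epiboly was the lowest of the 8 arrays for 17 of the 57 members (29.8%), and for 29.8% of all tested probe sets.

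**Figure D1:**
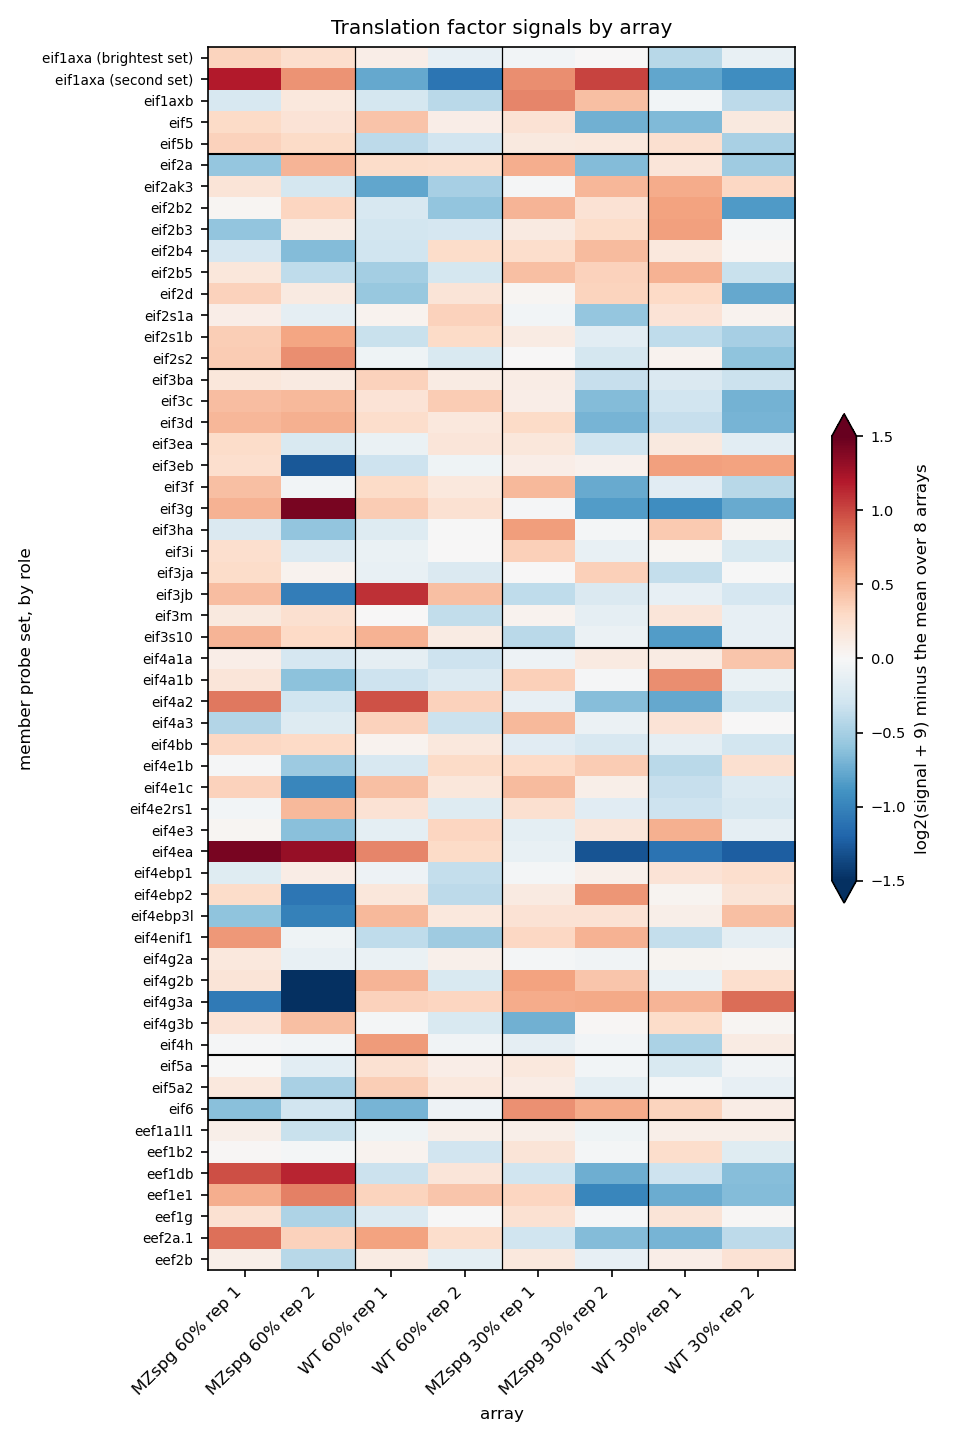
Heat map of the 57 member probe sets (down the page, grouped by role) on the 8 arrays (across). Colour gives log2(signal + 9) minus the probe set's mean over the 8 arrays, cut at 1.5 either way. Most cells are pale, and the strongest rows are eif4ea, dark red in MZspg at 60% epiboly and blue on 3 of the 4 arrays of 30% epiboly, eif4g3a, blue on both MZspg arrays of 60% epiboly, and the second eif1axa probe set, red on all 4 MZspg arrays.

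Few translation factor transcripts were called between MZspg and WT. At 60% epiboly 3 of the 57 member probe sets were called by limma at an adjusted p under 0.05 (5.26%), beside 4.52% of all tested probe sets. One, of eif1axa, rose in MZspg (2.28% of all tested were called higher), while eif4ebp3l and eif4g3a fell (2.24% were called lower). At 30% epiboly the same eif1axa probe set was the 1 member called (1.75%, beside 1.68% of all tested), and it was higher in MZspg (0.407% of all tested were called higher and 1.27% lower). The shares called were thus near those of the whole array at both stages, though they rest on few calls. That eif1axa probe set is not the brightest of its gene and is a member only because both were kept. On the brightest probe sets alone no member was called at 30% epiboly, and only eif4ebp3l and eif4g3a were at 60%. The share called at 30% epiboly thus rests on that exception. An unadjusted p under 0.05 was reached by 7 members at 60% epiboly (12.3%, beside 22.2% of all tested probe sets). At 30% epiboly it was reached by 2 (3.51%, beside 9.36%). These unadjusted shares were below those of the whole array. The median log2 fold change of the members was 0.04 at 60% epiboly, where that of all tested probe sets was 0.01, and 0.14 at 30% epiboly, where it was 0.05. Both medians changed sign when single arrays were left out, ranging from -0.03 to 0.17 at 60% and from -0.05 to 0.26 at 30% epiboly. Fold changes are of log2(signal + 9), which understates the change of dim probe sets.

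At 60% epiboly the 2 MZspg arrays lay above both WT arrays for 19 of 57 members, a pattern that 28.7% of all tested probe sets showed, and below them for 4 (23.1%). At 30% epiboly they lay above for 13 (21.7%) and below for 5 (16.8%). As shares of the members these counts are 33.3% above and 7.02% below at 60%, and 22.8% above and 8.77% below at 30% epiboly.

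**Figure D2:**
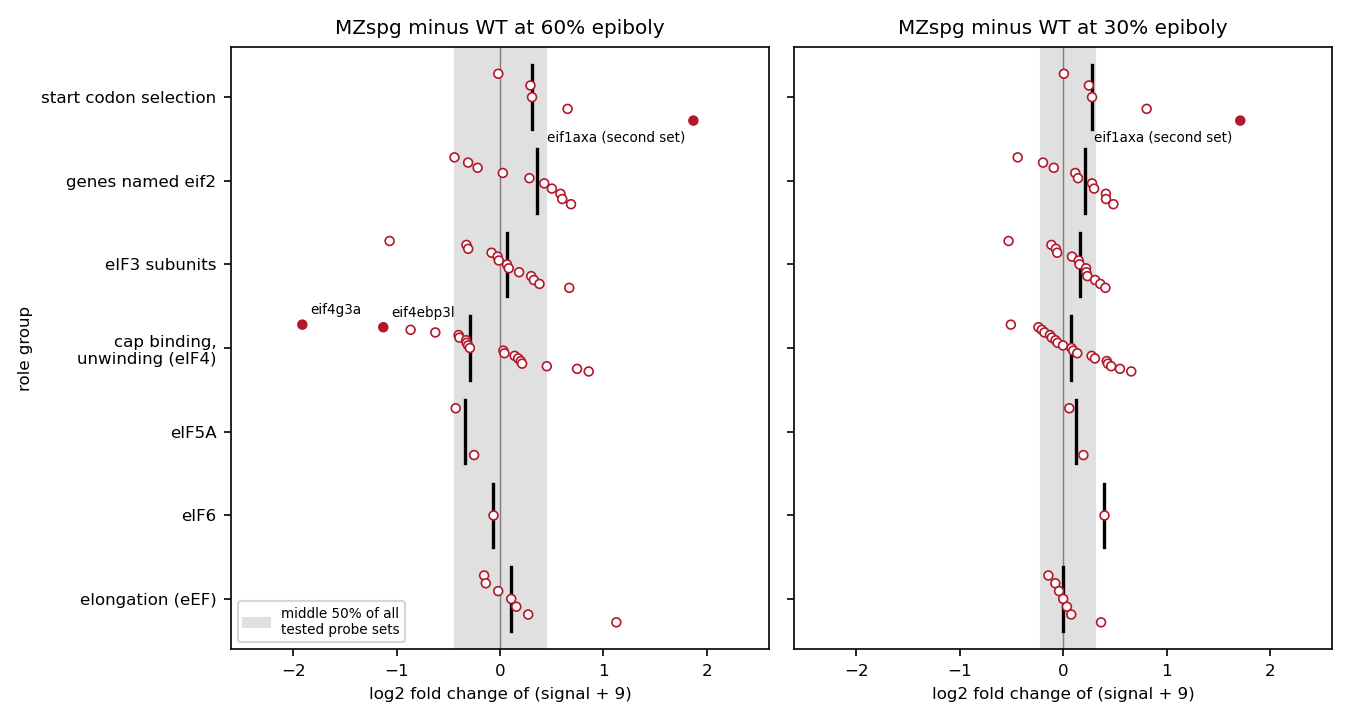
Log2 fold change of (signal + 9), MZspg minus WT, at 60% (left) and 30% epiboly (right), for each member probe set (points) in 7 role groups. Filled points were called at an adjusted p under 0.05, the black bars are group medians, and the grey band is the middle 50% of all tested probe sets. Only eif1axa, eif4g3a and eif4ebp3l are filled at 60% epiboly, and only eif1axa at 30%.

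The start codon factors held the one member probe set called higher in MZspg at both stages. It is 1 of 2 of the gene eif1axa, which encodes eIF1A, which binds the small ribosomal subunit and takes part in scanning and start codon choice. On the second of its probe sets the signal at 60% epiboly was 215 and 148 in MZspg and 48.5 and 36.8 in WT. At 30% epiboly it was 151 and 189 in MZspg and 48.2 and 42.5 in WT. Every MZspg array therefore lay above every WT array, and neither genotype differed by stage beyond its replicates (log2 difference of 60% minus 30% epiboly 0.08 in MZspg and -0.08 in WT). The log2 fold change was 1.87 at 60% epiboly (SE 0.358, adjusted p = 0.0133 by limma) and 1.71 at 30% epiboly (SE 0.358, adjusted p = 0.0354). The MZspg and WT arrays of the same number at 60% epiboly differed by 1.96 for replicate 1 and by 1.78 for replicate 2, the pair of high spike-in signal, and without that pair the adjusted p was 0.162. At 60% epiboly the call rested on both WT arrays, and removing one of them raised the adjusted p to as much as 0.0919. The 30% call was lost with the replicate number as a block (adjusted p = 0.05), without both arrays of high spike-in signal (adjusted p = 0.0852), and without any array of 30% epiboly or either WT array of 60% epiboly (highest adjusted p = 0.3), though its log2 fold change stayed between 1.56 and 1.87.

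The brightest probe set of the same gene showed much less. It read 152 and 143 in MZspg and 127 and 108 in WT at 60% epiboly, and 115 and 118 in MZspg and 86.0 and 108 in WT at 30% epiboly. The genotypes did not overlap at either stage, but the log2 fold changes were 0.31 at 60% epiboly (SE 0.332, adjusted p = 0.619) and 0.25 at 30% epiboly (adjusted p = 0.975). Both probe sets carry the same sequence accession in the platform annotation. The name of the brightest ends in the array maker's mark for probes shared by alternative transcripts of a gene. The difference between the 2 probe sets was not tested, and averaged over both the gene was not called (log2 fold change 1.09 at 60% epiboly, adjusted p = 0.0755, and 0.98 at 30% epiboly, adjusted p = 0.23).

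The other gene for eIF1A, eif1axb, had signals of 581 and 773 in MZspg and 571 and 519.5 in WT at 60% epiboly. At 30% epiboly it read 1150.3 and 949 in MZspg and 673 and 523 in WT. MZspg lay above WT at both stages, narrowly at 60%, with log2 fold changes of 0.30 at 60% (adjusted p = 0.561) and 0.81 at 30% epiboly (SE 0.273, adjusted p = 0.256), and neither was called. The 2 further probe sets of eif1axb had log2 fold changes of -0.34 and -0.08 at 60% epiboly and 0.50 and 0.21 at 30% epiboly. The remaining factors of this group are eif5, which sets off the GTPase activity of eIF2, and eif5b, the GTPase of subunit joining, and they had log2 fold changes of -0.02 and 0.65 at 60% epiboly and 0.01 and 0.28 at 30% epiboly without a call.

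None of the 10 probe sets of genes named eif2 was called between the genotypes at either stage. Of all tested probe sets 4.52% were called at 60% and 1.68% at 30% epiboly, so few calls could come among 10. These genes are of several kinds. They are those of eIF2, its exchange factor eIF2B and a kinase, and also of eif2a and eif2d, separate factors that can bring the initiator tRNA and are no subunits of eIF2. Their median log2 fold change was 0.36 at 60% epiboly and 0.21 at 30% epiboly, with 7 of 10 above 0 at each. The β subunit gene eif2s2 was the nearest to a call at 60% epiboly, with 982 and 1221 in MZspg and 718 and 639 in WT (log2 fold change 0.69, SE 0.287, adjusted p = 0.187). Its MZspg and WT arrays did not overlap there. The α subunit, the target of the stress kinases, is made from 2 genes. At 30% epiboly eif2s1a read 865 and 594 in MZspg and 1028 and 926 in WT, the member of the group nearest to a call there (-0.44, adjusted p = 0.737), while eif2s1b had a log2 fold change of 0.41. The kinase gene eif2ak3, known in mammals as PERK, the sensor of unfolded protein in the endoplasmic reticulum, read 51.9 and 35.6 in MZspg and 22.1 and 28.9 in WT at 60% epiboly (0.60, adjusted p = 0.359). These are dim signals, and at 30% epiboly the genotypes overlapped (43.6 and 66.8 in MZspg, 69.6 and 57.4 in WT).

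None of the 13 probe sets for eIF3 subunits was called between the genotypes, beside 4.52% of all tested at 60% and 1.68% at 30% epiboly. Between the stages 1 was called, in MZspg, where 32.6% of all tested were. Between MZspg and WT their median log2 fold change was 0.07 at 60% and 0.16 at 30% epiboly. The lowest at 60% epiboly was eif3jb, one of 2 genes for the loosely bound j subunit, with 69.3 and 18.8 in MZspg and 113 and 69.2 in WT (log2 fold change -1.07, SE 0.473, adjusted p = 0.212). The genotypes overlapped, and without MZspg replicate 2 the difference was -0.32. Its partner eif3ja read 464 and 394 in MZspg and 352 and 327 in WT at 60% epiboly, and 381.5 and 491 in MZspg and 296 and 379.9 in WT at 30% epiboly (log2 fold changes 0.33 and 0.36, neither called). The second gene for the e subunit, eif3eb, had 102 and 98.5 in MZspg and 149 and 148 in WT at 30% epiboly, without overlap and with close replicates, yet it was not called (-0.53, adjusted p = 0.894). At 60% epiboly its MZspg arrays read 114 and 33.8 and spanned the WT arrays at 74.4 and 89.8.

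The subunit gene eif3g, whose product binds RNA within eIF3, was higher at 60% than at 30% epiboly in MZspg. Its signal was 876 and 1639 in MZspg at 60% epiboly and 597 and 334 in MZspg at 30% (log2 fold change 1.405, SE 0.357, adjusted p = 0.0125). In WT it was 792 and 711 at 60% epiboly and 314 and 356 at 30% epiboly (1.14, adjusted p = 0.0535), which missed the threshold. The 60% arrays lay above the 30% arrays in both genotypes. Removing MZspg replicate 2 of one or the other stage ended the MZspg call (adjusted p up to 0.122), and without that of 60% epiboly the log2 fold change was 0.96. Of the 13 subunit probe sets, 6 had both 60% arrays above both 30% arrays in MZspg, as 29.9% of all tested probe sets had, and 7 in WT, as 28.4% had. The median stage difference of the subunits was 0.24 in MZspg and 0.50 in WT, against -0.11 and -0.07 over all tested probe sets.

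The 19 genes named eif4, grouped by symbol as cap binding and mRNA unwinding, held both members that fell in MZspg at 60% epiboly. Not all of the 19 bind the cap or unwind mRNA themselves. The scaffold gene eif4g3a, for an eIF4G that joins the cap-binding protein to the helicase and to eIF3, read 51.8 and 20.7 in MZspg and 152 and 149 in WT at 60% epiboly. At 30% epiboly it was at 178 and 178.5 in MZspg and 171 and 217 in WT. The 2 MZspg arrays of 60% epiboly were thus apart from the other 6, which lay between 149 and 217. The log2 fold change at 60% epiboly was -1.91 (SE 0.393, adjusted p = 0.0189), with -1.41 between the replicate 1 arrays and -2.41 between the replicate 2 arrays (adjusted p = 0.285 without both replicate 2 arrays). At 30% epiboly it was -0.11 (adjusted p = 0.994). Removing one of the WT arrays of 60% epiboly, or MZspg replicate 2, ended the call, with an adjusted p of up to 0.132. In MZspg eif4g3a was lower at 60% than at 30% epiboly (log2 fold change -2.14, SE 0.393, adjusted p = 0.00306), a call that held whichever single array was left out. Another probe set of the gene was not called, with a genotype difference of -0.78 at 60% epiboly and a stage difference in MZspg of -0.09 (adjusted p = 0.88). The paralog eif4g3b was not called, with 76.9 and 93.0 in MZspg and 64.2 and 54.9 in WT at 60% epiboly (0.45, adjusted p = 0.502), and 36.2 and 66.3 in MZspg and 81.1 and 67.1 in WT at 30% epiboly (-0.51, adjusted p = 0.841).

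The second that fell was eif4ebp3l, a gene for a 4E-binding protein. Such proteins hold back translation by occupying the cap-binding protein eIF4E until mTOR phosphorylates them. Its signal was 521 and 389 in MZspg and 1118 and 885 in WT at 60% epiboly, and 923 and 928 in MZspg and 845 and 1091 in WT at 30% epiboly. As for eif4g3a, both MZspg arrays of 60% epiboly lay below the other 6. The log2 fold change at 60% epiboly was -1.13 (SE 0.267, adjusted p = 0.0346), with -1.09 and -1.17 between the arrays of replicate 1 and of replicate 2 (adjusted p = 0.23 without both replicate 2 arrays), and at 30% epiboly it was -0.05. Removing any one of 5 arrays ended the call (all 4 WT arrays and MZspg replicate 2 of 60% epiboly, adjusted p up to 0.231). It also ended with the replicate number as a block (adjusted p = 0.0518). In MZspg the stage difference was -1.02 (SE 0.267, adjusted p = 0.014), and it was not called without MZspg replicate 2 of either stage or with a term for the arrays of high spike-in signal (adjusted p = 0.0557). The 2 other 4E-binding protein genes were not called. At 60% epiboly eif4ebp1 had a log2 fold change of 0.18 and eif4ebp2 of -0.29, and at 30% epiboly they had -0.21 and 0.28.

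The cap-binding protein gene eif4ea rose with stage in both genotypes. Its signal in MZspg was 308 and 283 at 60% epiboly and 99.85 and 39.3 at 30% epiboly (log2 fold change 2.07, SE 0.417, adjusted p = 0.00451). In WT it was 187 and 135 at 60% epiboly and 45.9 and 41.2 at 30% epiboly (1.68, SE 0.417, adjusted p = 0.0256). The stages did not overlap in either genotype. The MZspg call held whichever single array was left out (highest adjusted p = 0.0496), and the WT call was lost without any 1 of the 4 WT arrays (highest adjusted p = 0.19). Between the genotypes at 60% epiboly both MZspg arrays were above both WT arrays, with a log2 fold change of 0.86 that was not called (adjusted p = 0.248). At 30% epiboly the genotypes overlapped. Of the other cap-binding genes, eif4e1b, a form known from eggs and early embryos, had log2 fold changes of -0.31 at 60% and 0.42 at 30% epiboly, and eif4e1c had -0.62 and 0.55, with 0 calls.

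**Figure D3:**
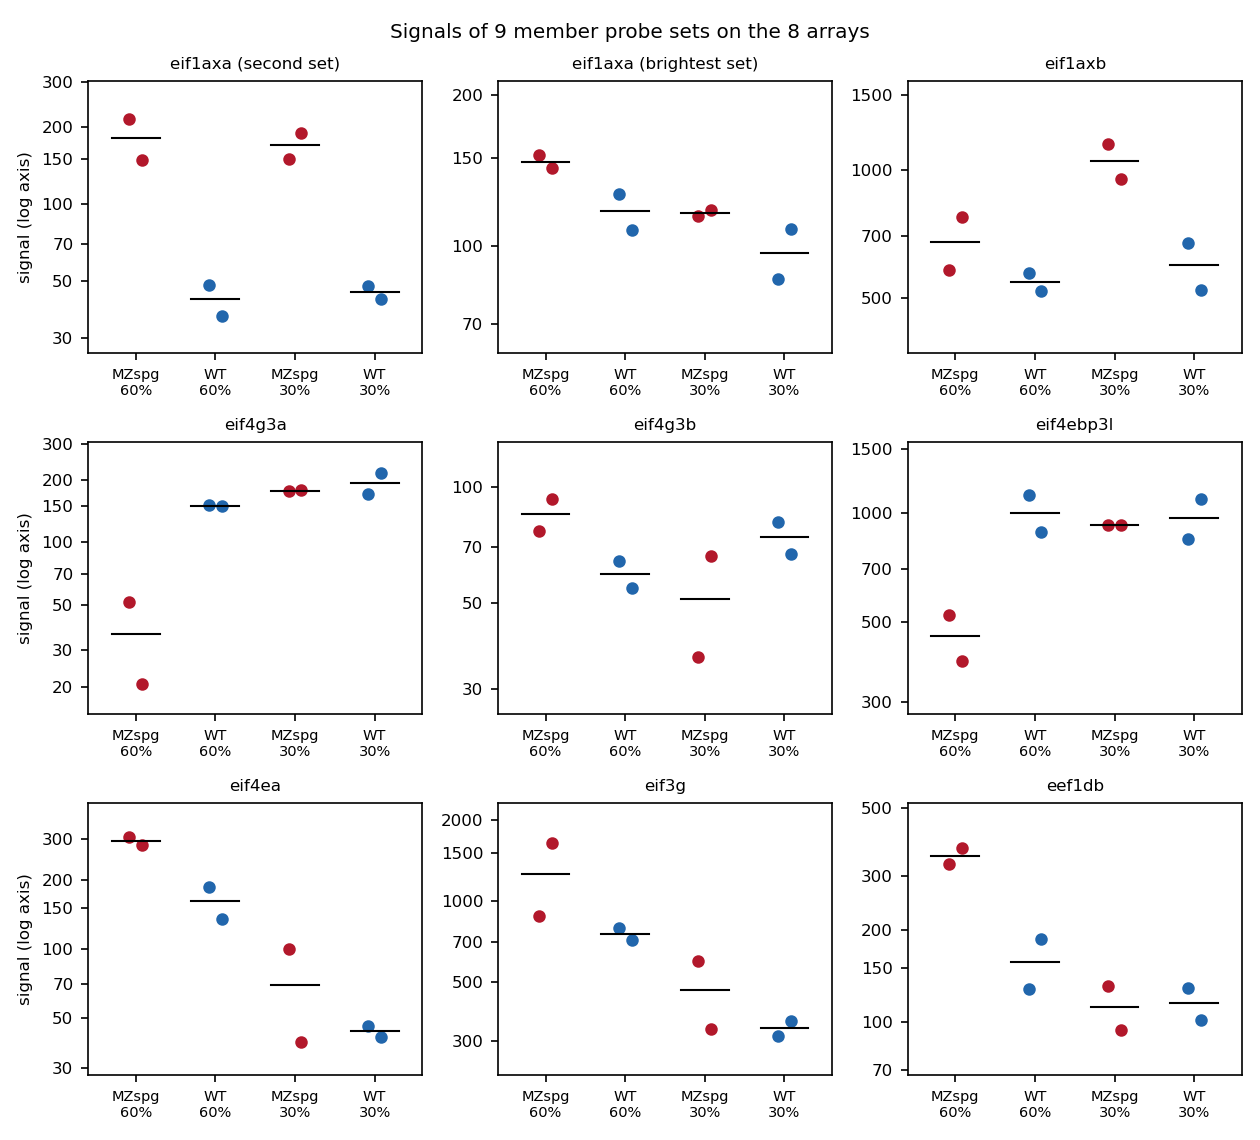
Signals on a log axis for 9 member probe sets, with MZspg (red) and WT (blue) at 60% and then at 30% epiboly. Points are arrays (n = 2 a group) and bars are means. On the second eif1axa probe set all MZspg arrays, from 148 to 215, lie above all WT arrays, from 36.8 to 48.5, and eif4g3a and eif4ebp3l are lowest on the 2 MZspg arrays of 60% epiboly.

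A few further genes of the eIF4 group had large differences in one of the comparisons without a call. The gene for the eIF4E transporter, eif4enif1, whose product carries eIF4E to the nucleus and to P-bodies, had 272 and 162 in MZspg and 129 and 115 in WT at 60% epiboly, and 213 and 247 in MZspg and 130.5 and 154 in WT at 30% epiboly. MZspg lay above WT on every array, with log2 fold changes of 0.75 (SE 0.353, adjusted p = 0.24) at 60% and 0.66 (adjusted p = 0.677) at 30% epiboly. The eIF4G relative eif4g2b, for a scaffold that lacks the eIF4E-binding part, read 1047 and 289 in MZspg and 1311 and 781 in WT at 60% epiboly (-0.86, adjusted p = 0.302). Without MZspg replicate 2 of that stage the difference was 0.05. At 30% epiboly it was 1396 and 1221 in MZspg and 852 and 1093 in WT. The helicase gene eif4a2 had 244 and 111 in MZspg and 275 and 177 in WT at 60% epiboly, and 125 and 85.4 in MZspg and 77.1 and 113 in WT at 30% epiboly. Its stage difference was 0.63 in MZspg and 1.16 in WT (adjusted p = 0.288 and 0.0933).

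None of the 7 genes named eef, grouped here as elongation factors, was called between the genotypes. Of all tested probe sets 4.52% were called at 60% and 1.68% at 30% epiboly. The eEF1A gene eef1a1l1 ranked between 2 and 8 among the filled probe sets of every array, and read 6551 and 4885 in MZspg and 5906 and 6551 in WT at 60% epiboly, and 6551 and 5906 in MZspg and 6551 and 6551 in WT at 30% epiboly. The repeated value arises because arrays share the same quantiles over their filled cells, so that at the highest ranks an equal rank gives an equal signal. A change in the amount of this transcript that left its rank alone would therefore not show. The eEF2 gene eef2b ranked between 5 and 43. Further down, an equal rank gave a close but unequal signal. At rank 20 eef2b read 4106 on MZspg replicate 2 of 30% epiboly and 4029 on WT replicate 2 of 60% epiboly. Over the 7 genes the median log2 fold change between MZspg and WT was 0.11 at 60% epiboly and 0.001 at 30% epiboly.

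The gene eef1db, for the δ subunit of the eEF1B exchange factor, was the elongation factor nearest to a call between the genotypes. At 60% epiboly it read 327 and 369 in MZspg and 128 and 186 in WT, and at 30% epiboly 131 and 94.0 in MZspg and 129 and 101 in WT. Both MZspg arrays of 60% epiboly lay above the other 6. The genotype difference at 60% epiboly was 1.12 and not called (SE 0.351, adjusted p = 0.0913), with 1.29 and 0.96 between the arrays of replicate 1 and of replicate 2. In MZspg eef1db was higher at 60% than at 30% epiboly (log2 fold change 1.57, SE 0.351, adjusted p = 0.00711), a call that ended when MZspg replicate 2 of 30% epiboly was removed (adjusted p = 0.0655), and also when both arrays of high spike-in signal were (adjusted p = 0.0676). In WT the stage difference was 0.41 (adjusted p = 0.465). The second eEF2 gene on the array, eef2a.1, was dim and rose in MZspg, with 90.7 and 62.5 at 60% and 36.8 and 26.8 at 30% epiboly (1.06, SE 0.364, adjusted p = 0.0439). In WT it read 76.0 and 58.3 at 60% and 25.5 and 33.6 at 30% epiboly (0.98, adjusted p = 0.0909). Its call was not kept in any of the 8 fits with 1 array left out (highest adjusted p = 0.228), nor with the replicate number as a block (adjusted p = 0.0559). The gene eef1e1, for a protein of the complex of tRNA synthetases, had 225 and 262 in MZspg and 194 and 205 in WT at 60% epiboly, and 192 and 72.8 in MZspg and 87.2 and 93.9 in WT at 30% epiboly, with stage differences of 0.97 and 1.07 that were not called.

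Transcripts for eIF5A, which helps the ribosome past difficult stretches and carries the modified residue hypusine, were not called on their brightest probe sets. At 60% epiboly eif5a had 1281 and 1148 in MZspg and 1512 and 1379.5 in WT (-0.25, adjusted p = 0.52), and at 30% epiboly 1436 and 1245.5 in MZspg and 1097 and 1239 in WT (0.20, adjusted p = 0.952). The genotypes did not overlap at either stage, narrowly at 30% epiboly and in opposite directions. Another probe set of eif5a was at -0.87 at 60% and -0.48 at 30% epiboly. The related eif5a2 read 1589.8 and 1013 in MZspg and 1841 and 1589.8 in WT at 60% epiboly, and 1539 and 1287 in MZspg and 1393 and 1308 in WT at 30% epiboly.

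The gene eif6, whose product keeps the large ribosomal subunit from joining too early, fell with stage in MZspg. It had 253 and 323 in MZspg at 60% epiboly and 640.2 and 588 in MZspg at 30% epiboly (log2 fold change -1.08, SE 0.315, adjusted p = 0.0232). In WT it had 241 and 375 at 60% epiboly and 502 and 427 at 30% epiboly (-0.61, adjusted p = 0.214). The 60% arrays lay below the 30% arrays in both genotypes. Removing one of the MZspg arrays of 30% epiboly, or MZspg replicate 1 of 60%, ended the MZspg call (adjusted p up to 0.0918).

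Between the stages few translation factor transcripts were called. In MZspg 7 of the 57 probe sets were called (12.3%, beside 32.6% of all tested probe sets). Of these, eef1db, eef2a.1, eif3g and eif4ea were higher at 60% epiboly (13.9% of all tested were called higher), and eif4ebp3l, eif4g3a and eif6 were lower (18.8%). Without both arrays of high spike-in signal eif4g3a was the 1 of the 7 still called (adjusted p = 0.0494). In WT eif4ea was the 1 member called (1.75%, beside 13.7% of all tested), and not without those arrays (adjusted p = 0.106). An unadjusted p under 0.05 was reached by 15 members in MZspg, beside 44.5% of all tested probe sets, and by 10 in WT, beside 31.3%. The 60% arrays lay below both 30% arrays for 11 members in MZspg (37.7% of all tested) and for 12 in WT (34.5%), and above them for 16 in MZspg (29.9%) and 18 in WT (28.4%). The lowest stage difference in WT was that of eif2ak3, with 22.1 and 28.9 at 60% and 69.6 and 57.4 at 30% epiboly (-1.07, adjusted p = 0.0719). The median stage difference of the members was -0.02 in MZspg and 0.05 in WT.

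**Figure D4:**
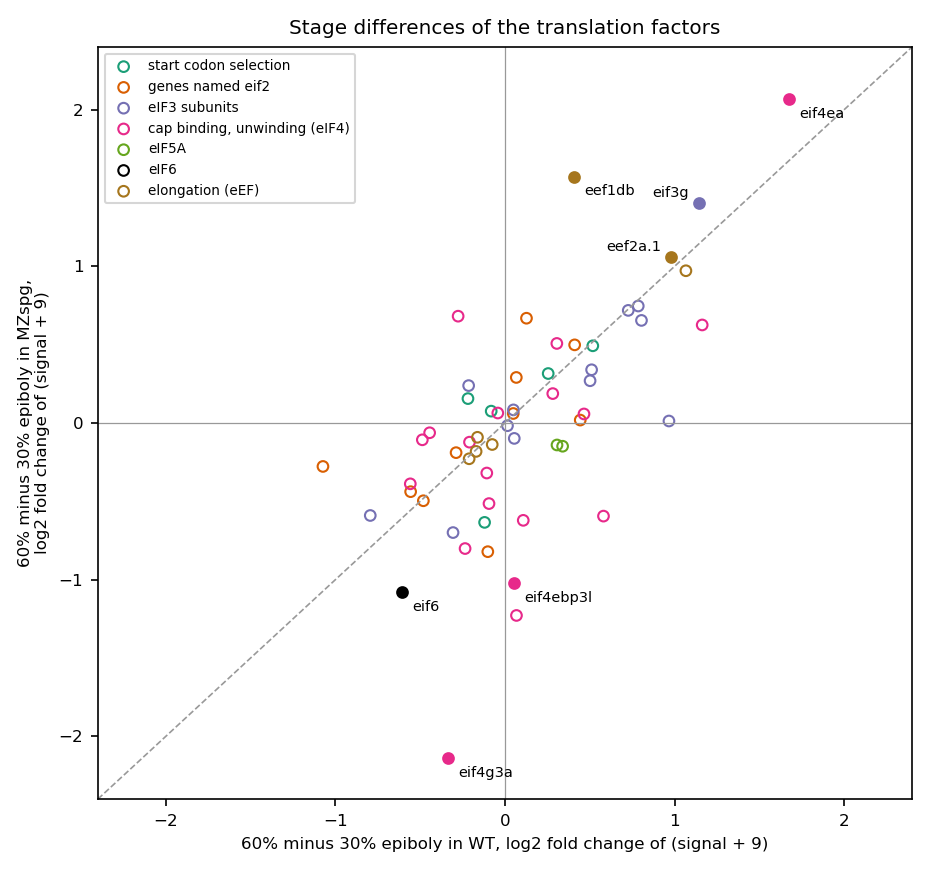
Stage difference (60% minus 30% epiboly) of each member probe set as a log2 fold change of (signal + 9), in MZspg (vertical axis) and in WT (horizontal axis), coloured by role. Filled points were called in at least one genotype, and the dashed line marks equal differences. The gene eif4ea lies at 2.07 in MZspg and 1.68 in WT, while eif4g3a and eif4ebp3l lie far below the line, at -2.14 and -1.02 in MZspg and -0.34 and 0.05 in WT.

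Whether the genotypes differed in their stage change was tested as an interaction, and limma called 0 of 57 members and 0 of 7375 probe sets (0.0%). An unadjusted p under 0.05 was reached by 3 members, beside 8.65% of all tested probe sets. They were eif4g3a (interaction -1.80 on the log2 scale, adjusted p = 0.495), eif4ebp3l (-1.07, adjusted p = 0.521) and eef1db (1.16, adjusted p = 0.574). A stage change in MZspg alone is therefore not shown for any of them.

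Many of these factors have 2 related genes in fish, and 8 pairs were set side by side on their brightest probe sets. They were eif1axa with eif1axb, eif2s1a with eif2s1b, eif3ea with eif3eb and eif3ja with eif3jb. The others were eif4a1a with eif4a1b, eif4g2a with eif4g2b, eif4g3a with eif4g3b, and eif5a with eif5a2. The 2 eEF2 genes, eef2a.1 and eef2b, were not among the 8, and their signs differed in all 4 comparisons. Their genotype differences were 0.16 and -0.15 at 60% and 0.08 and -0.14 at 30% epiboly. Their stage differences were 1.06 and -0.18 in MZspg and 0.98 and -0.17 in WT. At 60% epiboly 4 of the 8 pairs had the same sign of the genotype difference, and at 30% epiboly 5 had. For the stage difference 3 of 8 had the same sign in MZspg and 5 of 8 in WT. The widest gap was that of eif4g3a and eif4g3b in MZspg, at -2.14 and 0.68 between the stages. The eif5a pair and the eif4a1 pair, for the helicase eIF4A, had the same sign in all 4 comparisons, with eif4a1a and eif4a1b at genotype differences of 0.14 and 0.04 at 60% epiboly and -0.24 and -0.13 at 30% epiboly. On their other probe sets the mean signals of the eif5a pair parted with stage. From 30% to 60% epiboly that of eif5a went from 135 to 293 in MZspg and from 186 to 483 in WT. In MZspg its stages overlapped, with 430 and 156 at 60% and 177 and 92.6 at 30% epiboly. The mean of eif5a2 went from 888 to 329 in MZspg and from 741 to 361 in WT. Another probe set of eif4a1a read 137 and 1173 at 60% and 388 and 112 at 30% epiboly in MZspg. Its replicates were far apart, so it gives no clear stage direction there. The sign of an uncalled difference is weakly determined with 2 arrays a group.

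Other genes that act on translation were looked at from lists. Of 54 listed factors outside the name rule (poly(A)-binding proteins, release factors, kinases and repressors of initiation) 36 were tested. Between the genotypes 0 of them were called at either stage, beside 4.52% of all tested probe sets at 60% and 1.68% at 30% epiboly. With such shares 0 of 36 says little. Between the stages 2 rose and 13 fell in MZspg (13.9% of all tested probe sets were called higher there and 18.8% lower), and 0 rose and 6 fell in WT (5.6% of all tested probe sets were called higher there and 8.14% lower). The 6 that fell in WT were pabpc1l, ddx3xa, pdcd4b, mknk2a, cpeb1b and lsm14b. Of these lists 2 genes are given as examples, chosen after their values were seen. The cytoplasmic polyadenylation factor gene cpeb1b read 51.5 and 32.8 in MZspg at 60% and 155 and 172 in MZspg at 30% epiboly, which gave -1.78 on the log2 scale (SE 0.358, adjusted p = 0.00451). One that rose in MZspg was the poly(A)-binding protein gene pabpc1b, from a dim signal, with 102 and 189 at 60% and 22.4 and 19.4 at 30% epiboly (2.31, SE 0.382, adjusted p = 0.00197). In WT pabpc1b also read higher at 60% (49.7 and 51.5) than at 30% epiboly (30.0 and 21.0), without a call.

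Of 42 listed symbols of aminoacyl-tRNA synthetases, which charge the tRNAs, and their partners 19 were tested. Between the genotypes 0 were called, beside 4.52% of all tested probe sets at 60% and 1.68% at 30% epiboly. Among 19 genes that also says little. In MZspg 4 rose with stage (farsa, hars, kars1 and nars1, beside 13.9% of all tested) and 2 fell (mars1 and yars1, beside 18.8%). In WT 0 were called, beside 13.7% of all tested. The 4 tested factors of mitochondrial translation had 0 calls in any comparison, and they are too few to set beside these shares.

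The summed signals of cell population markers, and of transcripts of the oocyte, also moved with the groups. The summed signal of 4 germ cell markers was 398 to 561 in MZspg and 977 to 1074 in WT at 60% epiboly, the groups in which eif4g3a and eif4ebp3l were called. That of 8 markers of the yolk syncytial layer was 2197 to 4773 in MZspg and 1599 to 2027 in WT. On the replicate 1 arrays it was close, at 2197 in MZspg and 2027 in WT. On the replicate 2 arrays, of high spike-in signal, it was 4773 in MZspg and 1599 in WT. The enveloping layer sum, of 8 markers, was 7551 to 9480 in MZspg and 10857 to 13278 in WT. The enveloping layer markers did not all go the way of their sum. Over the 7 tested the median log2 fold change at 60% epiboly was -0.225. The 1 called there, cldnf, was higher in MZspg (2.45, adjusted p = 0.0116 by limma). At 30% epiboly the median was -0.809, with 0 called higher and 2 called lower in MZspg. These were krt5 (-3.72, adjusted p = 0.00562 by limma) and anxa1a (-2.83, adjusted p = 0.0208). Of the 7 tested yolk syncytial layer markers 2 were called higher in MZspg at 60% epiboly. They read 67.0 and 371 (apobb.1) and 85.8 and 688 (fabp1b.1) on MZspg replicates 1 and 2. Over all 7 markers the median log2 fold change at 60% epiboly was 1.77. Their gene mxtx2 did not follow the sum, at 8.12 and 16.6 in MZspg and 11.3 and 32.9 in WT. It fell with stage in both genotypes (-2.72 in MZspg and -2.38 in WT). Much of that sum was apoc1, at 1384 and 2149 in MZspg and 1630 and 1276 in WT at 60% epiboly. At 30% epiboly the germ cell sum was 1146 to 1331 in MZspg and 1301 to 1387 in WT, the yolk syncytial layer sum 383 to 1048 in MZspg and 511 to 822 in WT, and the enveloping layer sum 2798 to 6314 in MZspg and 6461 to 8506 in WT. Of 8 mesendoderm markers the sum was 2972 to 3451 in MZspg and 3661 to 4039 in WT at 60%, and 2187 to 4342 in MZspg and 3284 to 3378 in WT at 30% epiboly. The sum of 4 oocyte markers was 453 to 642 in MZspg and 435 to 492 in WT at 60% epiboly, against 816 to 1204 in MZspg and 786 to 1094 in WT at 30% epiboly. No germ cell, oocyte or enveloping layer marker was empty on both arrays of a group. Of the yolk markers fabp1b.1 was empty on both arrays of each 30% group and apoa2 on both of WT at 30%, while the endoderm marker sox17 was empty on both arrays of every group but WT at 60% epiboly. The part of these populations and of the oocyte transcripts in the differences above was not tested.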

How the data were processed

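The authors deposited 1 table of linear signal intensity values, a row per probe set and a column for each of the 8 arrays, and used MAS5, per the submitters' processing notes. Every array has the same quantiles over its filled cells, as quantile normalisation gives. The labels and files name neither that step nor why some cells are empty. Between 14.98% and 22.42% of an array's cells were empty. The number of arrays limits the precision, and p-values measure the spread between samples that the design text calls biological duplicates.

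Signals were analysed as log2(value + 9). Of 12477 probe sets, 30 controls were left out, and 7375 reached 41.03 (the 40th percentile) on at least 2 arrays and were tested. Empty cells took the 10th percentile of all values, 8.345 (1.222% of tested cells, none in a member). Symbols came from the platform annotation, and for all 56 members the gene ID has the same symbol in RefSeq. The 8 arrays entered a single linear model of 4 group means (limma 3.58.1 under R 4.3.3). Its lmFit left 4 residual degrees of freedom, to which eBayes, with a trend on intensity, added 7.674. Tests were two-sided. P-values were adjusted by Benjamini-Hochberg over all tested probe sets, and a probe set is called at an adjusted p under 0.05. The fit was tested on simulated data with independent noise for each probe set and array. Those data hold no shift of a whole array, so the test does not bear on the arrays of high spike-in signal.

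Besides pou5f3, which is no member, genes named with values are the members called in any comparison or the interaction, both eif1axa probe sets, the 3 highest and 3 lowest in each comparison, and the smallest p of each role group in each genotype comparison. Other members and listed genes named beside counts or pairs were chosen after their values were seen. Members, lists and alternatives (pseudocount, filter, empty cells, scaling, batch, replicate block, single arrays left out) were chosen with earlier results of these data known.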

Additional observations from a re-analysis of the deposited data

Results flagged for a closer look

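The genotype difference of eif4g3b had opposite signs at the stages. At 60% epiboly its log2 fold change was 0.45, and both MZspg arrays lay above both WT arrays. At 30% epiboly it was -0.51, and both lay below, but narrowly. The higher MZspg signal there was 66.3 and the lower WT signal 67.1. In the same way its stage difference was 0.68 in MZspg and -0.28 in WT. Both pairs of values are the same interaction, 0.96 on the log2 scale with an unadjusted p of 0.0944 and an adjusted p of 0.674 by limma, so the difference did not pass the test. The gene eif5a had a genotype difference of -0.25 at 60% epiboly and of 0.20 at 30% epiboly. Again the genotypes did not overlap at either stage, but at 30% the lower MZspg signal was 1245.5 and the higher WT signal 1239. Its interaction of -0.45 (adjusted p = 0.758 by limma) did not pass either. Another probe set of eif5a was lower in MZspg at both stages (-0.87 at 60% and -0.48 at 30% epiboly, neither called), and the mean over the gene's probe sets was -0.14 at 30% epiboly.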

How the results depend on the processing

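Over 57 member probe sets the counts of calls were small and moved with the settings, and the causes were not tested. At 30% epiboly the 1 member called between the genotypes became 0 with no filter, the stricter filter, only the 4 arrays of the comparison, the mean over the probe sets of a gene, or without both arrays of high spike-in signal, and 0 to 1 when single arrays were left out. At 60% epiboly the 3 called became 1 with no filter or with the mean over probe sets, 0 with only the 4 arrays or without both arrays of high spike-in signal, and 0 to 6 when single arrays were left out. Between the stages in WT the 1 called became 0 with no filter or without both such arrays, 2 with centred arrays, only the 4 arrays or the mean over probe sets, 3 with a batch term for them, and 0 to 2 when single arrays were left out. In MZspg the 7 called became 3 with only the 4 arrays, 1 without both such arrays, and 2 to 9 when single arrays were left out. An array left alone in its group was assumed to vary like the other groups.

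The calls over all tested probe sets ranged, when single arrays were left out, from 22 to 120 (main 124) at 30% and from 119 to 757 (333) at 60% epiboly between the genotypes, from 0 to 1196 (1013) between the stages in WT and from 791 to 2467 (2405) in MZspg, and from 0 to 54 for the interaction. Of the other settings, those that moved a count by over 1.5 times were as follows. No filter gave 31 at 30% and 211 between the stages in WT. The stricter filter gave 72 at 30%, 79 at 60%, 487 in WT and 1271 in MZspg. Only the 4 arrays gave 67 at 30%, 65 at 60% and 1429 in MZspg. The batch term gave 615 at 60% and 655 in WT, and restriction to probe sets with a value on all 8 arrays gave 216 at 60%. Leaving out both arrays of high spike-in signal gave 76 at 30%, 32 at 60%, 110 in WT and 688 in MZspg. The median log2 fold change of members ranged from -0.049 to 0.257 between the genotypes at 30% and from -0.03 to 0.17 at 60% epiboly, from -0.07 to 0.12 between the stages in WT and from -0.12 to 0.13 in MZspg, where it was also 0.13 without both arrays of high spike-in signal.

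With the replicate number as a block the counts called were 0 at 30% and 2 at 60% epiboly between the genotypes, 1 between the stages in WT and 7 in MZspg, and 0 for the interaction. The 7 in MZspg are not the same members as in the main fit, since eef2a.1 was lost (adjusted p = 0.0559 by limma). Deviations of arrays with the same number correlated at -0.333 to 0.078, and the labels do not pair them.

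The differences below are those of members named with values by rule, and some other members also turned, such as eif2a at 30% epiboly (-0.48 to 0.72). No called difference among them changed sign under any setting. Among uncalled ones, the mean over probe sets turned eif5a at 30% (-0.14) and eif1axb at 60% epiboly (-0.041). Leaving out both arrays of high spike-in signal turned eif2s1a (0.049), eif3eb (0.56) and eif6 (0.066) at 60% epiboly. Single arrays left out turned genotype differences at 30% epiboly of eef1db (-0.26 to 0.18), eef1e1 (-0.28 to 1.02), eef2a.1 (-0.10 to 0.26), eif2ak3 (-0.46 to 0.069), eif2s2 (-0.18 to 0.47), eif3g (-0.002 to 0.82), eif4a2 (-0.12 to 0.39), eif4ea (-0.12 to 1.05), eif4ebp3l (-0.23 to 0.13), eif4g3a (-0.28 to 0.058) and eif5a2 (-0.068 to 0.19). At 60% epiboly they turned those of eef2a.1 (-0.082 to 0.40), eif3eb (-1.08 to 0.44), eif4a2 (-0.94 to 0.14), eif4g2b (-1.78 to 0.048) and eif6 (-0.38 to 0.24).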

Other observations

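Of the members, 10 genes had more than 1 tested probe set, and the probe sets of a gene did not always show the same stage difference. The other probe set of eif5a2 was called lower at 60% than at 30% epiboly in MZspg (log2 fold change -1.46, adjusted p = 0.0113 by limma), while its brightest was at -0.15. Likewise the other probe sets of the cap-binding protein genes eif4e1c and eif4e3 were called lower at 60% than at 30% epiboly in MZspg. Their log2 fold changes were -1.46 (adjusted p = 0.0257 by limma) and -1.48 (adjusted p = 0.0244), while the brightest were at -0.59 and -0.32. This probe set of eif4e3 read only 9.87 and 3.55 in MZspg at 60% epiboly, near the value of 8.345 given to empty cells. The other probe set of eif4g2a was called higher at 60% epiboly in WT (1.57, adjusted p = 0.0247), while the brightest was at -0.04. These 4 calls come from the 10 other tested probe sets of members. Over all tested probe sets 18.8% were called lower at 60% epiboly in MZspg and 5.6% higher in WT, so such calls are common. Each of these 4 calls was lost in some fits with 1 array left out. They were picked after their values were seen, and the cause of the differences between probe sets was not tested.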
